A study of Mus musculus with 74 samples.

Results

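Mitochondria carry a small circular genome of their own, and the RNAs made from it were counted here in sorted mouse brain cells. The members are the genes of the deposited count table whose symbol starts with mt-. There are 37 of them among 49912 genes: 13 protein genes, 2 rRNA genes and 22 tRNA genes. Together they held 5937135 counts over 74 libraries, of which the rRNA genes took 54.4%, the protein genes 44.96% and the tRNA genes 0.612%.

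As background, both strands of the mitochondrial genome are transcribed into long RNAs that are cut apart, largely at the tRNAs that lie between the other genes. Most of the messengers are polyadenylated. The messengers encode core subunits of respiratory complexes I (Nd genes), III (Cytb) and IV (Co genes) and of the ATP synthase (Atp genes). The 12S rRNA (mt-Rnr1) and the 16S rRNA (mt-Rnr2) build the mitochondrial ribosome, whose proteins, like most respiratory subunits and all factors that copy and transcribe this genome, come from nuclear genes. Microglia are the resident macrophages of the brain. Cuprizone is a copper chelator that damages oligodendrocytes when it is fed.

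Whole perfused brains of 37 mice were dissociated. Viable cells were sorted into Cd11b-positive cells (microglia) and all remaining cells (nonmicroglia), so that each animal gave a library of each fraction. Mice were Trem2 wild type (WT), heterozygous (HET, +/-) or knockout (KO, -/-), and ate control chow or chow with 0.2% cuprizone for 5 or 12 weeks. Each of the 12 groups had 3 animals, except the HET groups at 12 weeks with 4 and WT on control chow at 12 weeks with 2. Every group had 1 male and otherwise females. Age and strain were not named in the sources used here, and the Trem2 alleles are the only ones named, in the controls too.

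Libraries held 1043961 to 3945694 counts (median 1753725). Trem2 itself, the microglial lipid receptor that was deleted, had a median of 891 CPM (counts scaled to a common library total) in WT microglia (range 418 to 989), 457 in HET (308 to 987) and 156 in KO (109 to 250), and at most 18.1 in any nonmicroglia library. The summed level of 5 microglia markers was 13963 to 36562 CPM in microglia and 240 to 630 CPM in nonmicroglia. Neutrophil markers summed to 101 to 7609 CPM in the microglia fraction, so the Cd11b gate held other myeloid RNA in amounts that varied between libraries. In bulk libraries of this kind, fewer mitochondrial RNAs per cell and a different mix of cells cannot be told apart.

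Which mitochondrial RNAs were counted depended first on the gene. In these 3' tag libraries 12 members had counts in every library and 9 were at 0 in all 74: the protein genes mt-Atp8 and mt-Nd4l and the tRNA genes mt-Tn, mt-Ty, mt-Ts1, mt-Td, mt-Tk, mt-Tg and mt-Th. The highest totals were those of mt-Rnr2 with 2302066 counts, mt-Rnr1 with 929207 and mt-Cytb with 866412. The complex I genes followed with mt-Nd4 at 653105 and mt-Nd1 at 555727, then mt-Nd2 at 272511, and the complex IV gene mt-Co1 had 168640. Below these lay mt-Nd5 with 96321, mt-Nd6 with 29354 and mt-Nd3 with 27341 counts. The remaining protein genes were nearly empty: mt-Co2 had 67 counts in 9 libraries, mt-Atp6 44 in 4 and mt-Co3 17 in 3.

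On the per-length scale (counts per kilobase as a percent of the sum over the members) mt-Rnr2 took 27.3%, mt-Rnr1 18.3%, mt-Cytb 14.2%, mt-Nd1 10.9% and mt-Nd4 8.90%. The proline tRNA gene mt-Tp reached 2.68% on this scale, above mt-Co1 at 2.05% and mt-Nd5 at 0.992%. A 3' tag method counts ends and not lengths, so this order applies to tags per base of gene only.

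The near-empty genes lie side by side. On GRCm38 the run from mt-Ts1 (chrM:6870-6938, minus strand) to mt-Nd4l (chrM:9877-10173, plus strand) holds 11 members, of which 6 were at 0 and 9 had fewer than 100 counts in all. Its exceptions were mt-Nd3 (chrM:9459-9806) and the arginine tRNA gene mt-Tr with 298 counts. Among the 26 members outside the run 3 were at 0, and the lowest of the others had 36 counts.

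Most protein genes of this run have a copy in the nucleus. A sequence comparison found 7 annotated pseudogenes on chromosome 1, minus strand, between 24611535 and 24616197 (a span of 4663 bases), that match the mitochondrial bases 6381 to 11042 (4662 bases) in order. Every 50-base window of mt-Co2, 99.5% of the windows of mt-Atp6, 99.9% of mt-Co3, 98.8% of mt-Nd4l and 98.0% of mt-Nd3 also occur in an annotated nuclear gene. A tag from such a window aligns equally well to both places. For mt-Nd4 the share was 62.2% over the gene and 0% over the last 200 bases at its 3' end, and for mt-Co1 51.1% over the gene and 100% over the last 200 bases. The window test could not be made for the tRNA genes of the run or judged complete for mt-Atp8, since no genome sequence was at hand between the annotated pseudogenes.

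Aligned pairs are given here to show how close the copies are. All sequences are GENCODE M21 transcripts (GRCm38), written 5′ to 3′ along the transcript, with capitals only at bases that differ within a pair. The first pair, bases 622 to 681 of the complex IV gene mt-Co2 and its copy, has no difference, as over all 681 aligned bases.
mt-Co2: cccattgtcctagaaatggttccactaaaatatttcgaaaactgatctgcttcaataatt
Gm28661: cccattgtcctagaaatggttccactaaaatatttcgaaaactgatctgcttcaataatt

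Over 345 aligned bases mt-Nd3 and its copy differ by the single substitution T3C, counted from 1 at the 5′ end of the member. It lies at the opposite end of the gene from most tags of a 3' method. These are bases 1 to 60.
mt-Nd3: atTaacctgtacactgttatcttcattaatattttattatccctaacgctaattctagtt
Gm28438: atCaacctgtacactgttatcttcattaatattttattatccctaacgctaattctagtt

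The chromosome 1 copy of mt-Co1 covers its last 492 bases with 6 substitutions (T1056A, C1057T, A1059G, A1060G, C1062A and A1066T), and none after base 1066. These are bases 1054 to 1113.
mt-Co1: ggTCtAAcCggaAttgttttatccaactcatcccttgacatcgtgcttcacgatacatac
Gm29216: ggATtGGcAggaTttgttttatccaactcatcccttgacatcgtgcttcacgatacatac

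The copies themselves held little: 3104 counts over all annotated nuclear copies and 594 over the 7 on chromosome 1. Of the latter, Gm28438 beside mt-Nd3 had 377 counts, Gm29216 103, Gm10925 (the copy of mt-Atp6) 70 and Gm28661 25. The counter and its treatment of reads with several matching places were not named in the sources used here. For comparison, mt-Co1, with 51.1% of its windows shared over the gene, held 168640 counts, and mt-Nd3, with 98.0%, held 27341. The part that shared sequence plays in the counts of any of these genes was not tested.

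**Figure D1:**
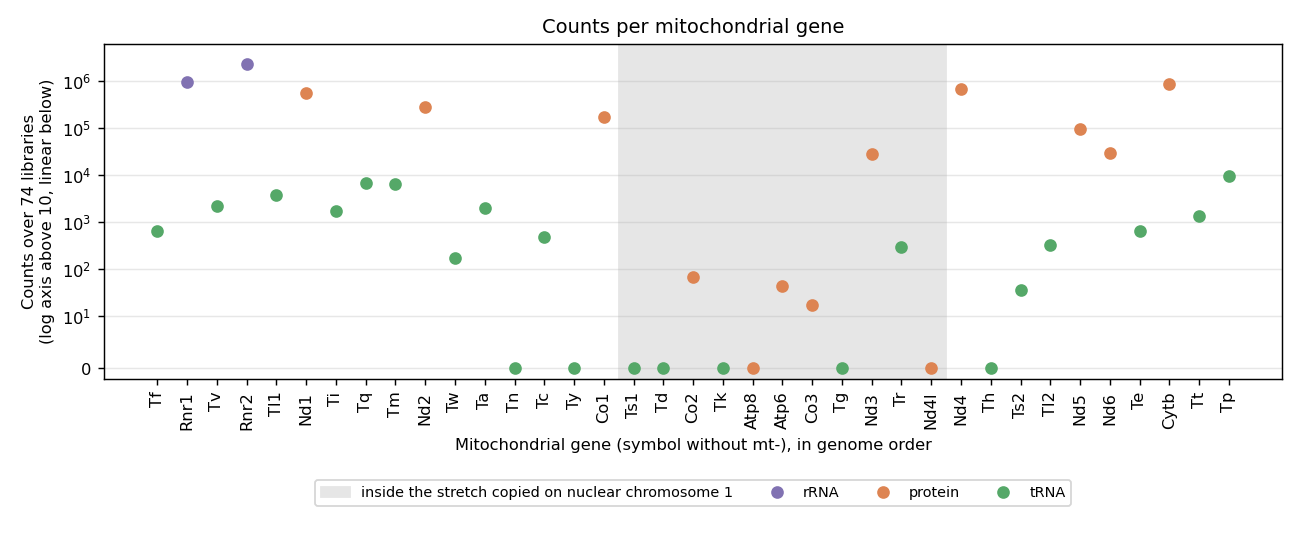
Counts of each mitochondrial gene summed over 74 libraries (vertical axis, logarithmic above 10 and linear below), in genome order, coloured by class. The shaded genes lie wholly inside the stretch spanned by the 7 annotated copies on nuclear chromosome 1. For its tRNA genes and mt-Atp8 a copy is inferred from this span only. Of the 11 shaded genes 9 have fewer than 100 counts, with mt-Nd3 (27341) and mt-Tr (298) as exceptions.

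Transfer RNAs carry amino acids to the ribosome, and the 22 tRNA genes held 36323 counts in all. The highest were the proline gene mt-Tp with 9554, the glutamine gene mt-Tq with 6697, the methionine gene mt-Tm with 6464 and a leucine gene, mt-Tl1, with 3824. The 8 tRNA genes read from the minus strand of the reference held 19390 of the counts. The sequences of the 3 highest and of 2 genes at 0, a serine gene and the lysine gene, follow with the anticodon in capitals. Both genes at 0 lie inside the run spanned by the nuclear copies, where the tRNA genes themselves could not be compared.
mt-Tp: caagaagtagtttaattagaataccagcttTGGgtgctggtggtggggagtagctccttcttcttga
mt-Tq: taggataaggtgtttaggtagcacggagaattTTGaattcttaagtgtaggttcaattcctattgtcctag
mt-Tm: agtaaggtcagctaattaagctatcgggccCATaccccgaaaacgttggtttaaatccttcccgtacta
mt-Ts1: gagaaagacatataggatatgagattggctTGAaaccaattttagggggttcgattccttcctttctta
mt-Tk: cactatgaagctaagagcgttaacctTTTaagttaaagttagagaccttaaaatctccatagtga

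Microglia held a smaller share of mitochondrial counts than the other cells of the same brain. Summed over the 37 members the share was 2.73% ± 0.909 (SD, n = 37) in microglia, range 1.49 to 4.65, and 5.54% ± 1.68 (SD, n = 37) in nonmicroglia, range 3.45 to 9.28. The nonmicroglia library was higher in 34 of 37 animals, by 2.81 ± 1.95 percentage points on average (SD, range -1.07 to 7.23). The 3 animals in which microglia were higher were all HET mice on cuprizone for 12 weeks. They had 4.05, 4.45 and 4.56% in microglia against 3.88, 4.39 and 3.50% in nonmicroglia. RNA integrity numbers at 5 weeks were 7.3 to 8.8 on cuprizone and 7.2 to 9.3 in controls in nonmicroglia (9 libraries each). In microglia they were 8.7 to 9.9 (8 libraries) and 8.7 to 9.7 (7 libraries). At 12 weeks they were 8.5 to 9.2 (2 libraries) and 8.6 to 8.8 (3 libraries) in nonmicroglia. In microglia of that time they were 7.3 to 8.1 and 8.1 to 9.6 (3 libraries each). Their part in the fraction difference was not tested.

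Gene by gene, the 12S rRNA took 0.360% ± 0.217 of the counts in microglia and 0.932% ± 0.441 in nonmicroglia (SD, n = 37 each), and the 16S rRNA 1.04% ± 0.265 and 2.21% ± 0.461. Cytochrome b (mt-Cytb) took 0.423% ± 0.190 and 0.769% ± 0.319. Fits across all genes with edgeR's quasi-likelihood test, adjusted by Benjamini-Hochberg over all genes tested, took 26 of the 37 members, the others being at or near 0. Averaged over the 12 conditions, 21 of these were lower in microglia at adjusted p under 0.05 and 0 were higher. Among all 18408 genes tested, 29.5% were lower and 22.2% higher. Of the 21, mt-Tf and mt-Tr passed the count filter in nonmicroglia alone but not in microglia alone. The filter favoured their direction, so these 2 calls add no support. The fractions are different cells, so that 51.7% of all genes passed in one direction or the other, and the median of all genes lay at -0.33 on the log2 scale.

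The complex I gene mt-Nd2 had the smallest called difference, with a log2 change of -0.41 ± 0.13 (SE, adjusted p = 0.00424), or -0.08 relative to the median gene. The largest among the rRNA and protein genes present in every library were those of mt-Rnr1 at -1.31 ± 0.12 (adjusted p = 5.84e-14), mt-Nd3 at -1.28 ± 0.34 and mt-Nd6, the only protein gene on the minus strand, at -1.21 ± 0.10. The 16S rRNA differed by -0.87 ± 0.06, or -0.54 relative to the median gene. Another scaling moved the median of all genes to -0.53 (DESeq2 size factors) or -0.55 (total counts) and left 21 members lower and 0 higher. With limma voom the differences of mt-Rnr1 (-1.46) and mt-Rnr2 (-0.76) were not called, at adjusted p of 0.306 and 0.846.

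Transfer RNAs differed most between the fractions. The proline gene mt-Tp held 0.00110% of counts in microglia and 0.0127% in nonmicroglia, a log2 change of -3.42 ± 0.19 (SE, edgeR adjusted p = 2.07e-32). The glutamine gene mt-Tq differed by -2.78 ± 0.23, mt-Tm by -2.23 ± 0.19 and the alanine gene mt-Ta by -3.70 ± 0.40. The isoleucine gene mt-Ti, at 0.15 ± 0.42 and an adjusted p of 1, was not called, although it had 1668 counts. The other members not called were mt-Tl2, mt-Tw, mt-Co2 and mt-Atp6, each at 0 in 6 or more of the 24 groups and without a usable estimate. The called tRNA genes mt-Tf, mt-Tr, mt-Tc, mt-Te and mt-Tt were also at 0 in 1 to 5 whole groups, so their fitted changes are not printed. Each lost its call (adjusted p of 1) in at least 1 fit that left out both libraries of an animal.

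**Figure D2:**
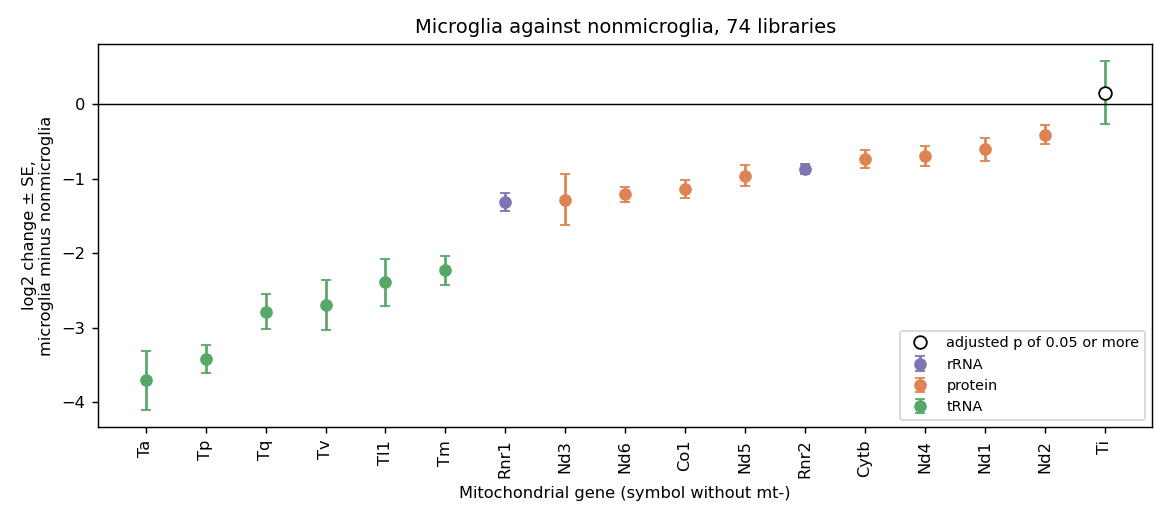
Log2 change, microglia minus nonmicroglia, averaged over 12 conditions (vertical axis, error bars SE) for the 17 members with counts in all 24 groups, ordered by size. All but mt-Ti were called lower in microglia, and 6 tRNA genes lie between -2.23 and -3.70 while rRNA and protein genes lie between -0.41 and -1.31.

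Nuclear partners were counted beside them from lists chosen by function. Among all genes tested in the same fit, 29.5% were lower in microglia and 22.2% higher. Of 75 tested nuclear subunits of the respiratory chain 64 were lower in microglia and 2 were higher, with a median of -0.88 against -0.33 for all genes. The largest differences were those of the ATP synthase genes Atp5g1 (-2.57 ± 0.28) and Atp5l (-1.87 ± 0.18) and the complex I gene Ndufs5. The latter was at 0 in 1 microglia group and is given by its pooled level, 5.54 CPM in microglia and 22.3 in nonmicroglia. Of 77 mitochondrial ribosomal proteins 30 were lower and 3 higher, with Mrps6 at -2.53 ± 0.15. Among 7 regulators of mitochondrial gene expression, Ppargc1a, a coactivator that promotes mitochondrial biogenesis, was lower by -5.22 ± 0.28 and 3 were higher. Of 32 genes for mitochondrial transcription and RNA processing 4 were lower and 6 higher. Among them Mterf2 had 6 counts over all microglia libraries, with 7 of 12 groups at 0, and 626 over nonmicroglia libraries, and Polg2 stood at 5.62 CPM in microglia and 3.42 in nonmicroglia, where 2 groups were at 0. Of 17 mitochondrial tRNA synthetases 2 were lower, Fars2 (-0.95 ± 0.27) and Mars2, which was at 0 in 1 microglia group (3.36 CPM in microglia and 7.86 in nonmicroglia). The direction of the transcription and processing list depended on scaling: its median of 0.14 turned to -0.08 with DESeq2 size factors and -0.10 with total counts, and its calls turned to 6 lower and 2 higher with both. With these scalings 40 and 41 ribosomal proteins were lower and 1 was higher, and of the regulators 2 were higher and 1 lower. In the main fit, calls among the transcription and processing genes and the synthetases were no more frequent than among all genes. They say nothing particular to these 2 lists.

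In the microglia fraction, mitochondrial RNA took a larger mean share of counts on cuprizone in each genotype at 5 weeks. At 5 weeks the summed share was 2.35% ± 0.328 in WT controls and 3.54% ± 1.003 on cuprizone, 2.25% ± 0.244 and 3.33% ± 0.715 in HET, and 2.11% ± 0.211 and 3.49% ± 0.612 in KO (SD, n = 3 each). Of the 9 libraries on cuprizone 8 lay above all 9 controls. The exception, a WT library at 2.70%, lay below the highest control at 2.71%.

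In the fit with genotypes averaged, 22 members could be tested and 5 were called on cuprizone at 5 weeks, all of them higher, where 1.6% of all genes were called and 1.33% were higher. The 12S rRNA mt-Rnr1 rose by 0.97 ± 0.14 on the log2 scale (SE, edgeR adjusted p = 5.91e-06) and the 16S rRNA mt-Rnr2 by 0.50 ± 0.13 (0.0164). The complex I genes mt-Nd1 and mt-Nd5 rose by 0.98 ± 0.24 (0.0254) and 0.77 ± 0.19 (0.0169), and mt-Cytb by 0.65 ± 0.18 (0.0446). All 5 remaining rRNA or protein genes tested had positive values, from 0.25 ± 0.22 for mt-Nd2 to 0.71 ± 0.20 for mt-Co1 (0.0631). None of the 12 tRNA genes tested was called.

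The call of the 12S rRNA with genotypes averaged held under 9 other settings and without any of the 18 libraries in turn. Its share of counts was 0.236, 0.186 and 0.193% in WT controls and 0.302, 0.307 and 0.688% in WT on cuprizone. In HET it was 0.193, 0.167 and 0.186% in controls and 0.629, 0.302 and 0.396% on cuprizone. In KO it was 0.211, 0.264 and 0.219% in controls and 0.416, 0.250 and 0.340% on cuprizone. The groups did not overlap in WT and HET and overlapped by 1 library in KO. Overlap was not counted over all genes, here or below. Groups this small can separate by chance, so a lack of overlap describes the values only.

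Tested within genotypes, mt-Rnr1 was the only member called at 5 weeks: by 1.10 ± 0.25 in WT (edgeR adjusted p = 0.0352), where 0.142% of all genes were called, and by 1.28 ± 0.25 in HET (0.00477), where 0.277% were called and 0.263% were higher. In KO 0 members were called, against 0.0568% of all genes. There mt-Rnr1 stood at 0.55 ± 0.25 and mt-Cytb at 1.14 ± 0.31 (0.408). The difference of the diet effect between KO and WT was tested and 0 members passed, so the genotypes are not shown to differ at this time.

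These calls rested on few animals. Without the WT cuprizone library of animal 9144 (12S rRNA 0.688%) 1 member was called in place of 5, and without the WT control of animal 5512 there were 2. Over the 18 fits that each left out a library, mt-Cytb lost its call in 13, mt-Nd1 in 7, and mt-Rnr2 and mt-Nd5 in 3 each. Under 9 other settings mt-Cytb lost it in 4, mt-Nd1 in 3, mt-Nd5 in 2 and mt-Rnr2 in 1. With the share of counts on noncoding genes outside the members, or library depth, as a covariate 2 were called. Microglia RNA integrity numbers at 5 weeks were 8.7 to 9.9 on cuprizone (8 libraries) and 8.7 to 9.7 in controls (7 libraries). With this number as a covariate, on these 15 libraries only, mt-Nd1 and mt-Nd5 were not called (edgeR adjusted p of 0.204 and 0.0524).

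At 12 weeks the picture differed by genotype in the values. The summed microglial share was 2.04% ± 0.579 in WT controls (SD, n = 2) and 2.03% ± 0.463 on cuprizone (n = 3). In KO it was 2.06% ± 0.160 and 2.48% ± 0.665 (SD, n = 3 each). In HET it was 2.25% ± 0.762 and 4.30% ± 0.244 (SD, n = 4 each), with controls at 1.49, 3.27, 2.33 and 1.90% and cuprizone libraries at 4.05, 4.45, 4.15 and 4.56%. Only in HET did the libraries on the 2 diets not overlap. RNA integrity numbers, given for 6 microglia libraries of this time and none of HET, were 7.3 to 8.1 on cuprizone (3 libraries) and 8.1 to 9.6 in controls (3 libraries), and their part in the 12-week values was not tested.

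**Figure D3:**
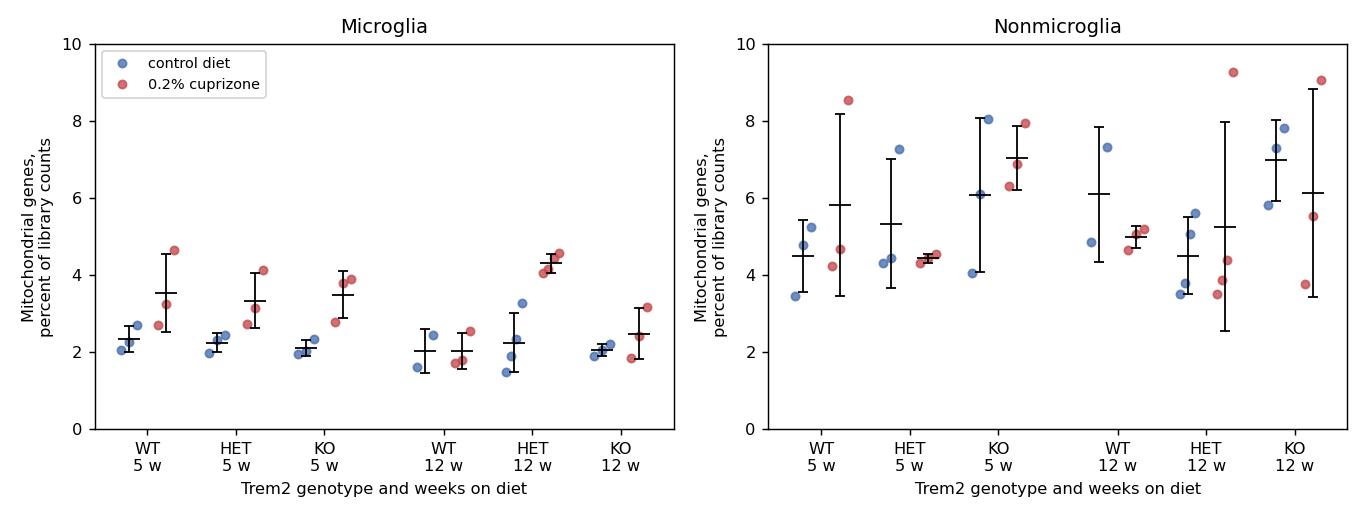
Counts of all 37 mitochondrial genes as a percent of library counts (vertical axis), a point per library, with the mean and SD of each group as lines, by genotype and weeks on diet. In microglia 8 of 9 cuprizone libraries at 5 weeks lie above all controls, and at 12 weeks the 4 HET cuprizone libraries lie between 4.05 and 4.56, above every other microglia library of that time. In nonmicroglia the diets overlap in each genotype and week.

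In HET microglia 6 of the 22 tested members rose on cuprizone at 12 weeks and 0 fell, where 2.55% of all genes were called and 1.88% rose. The 12S rRNA mt-Rnr1 was 0.907, 0.794, 0.930 and 0.937% of counts on cuprizone and 0.248, 0.396, 0.301 and 0.214% in controls. Its log2 change was 1.78 ± 0.22 (SE, edgeR adjusted p = 6.27e-08). The 16S rRNA mt-Rnr2 was 1.45, 1.19, 1.49 and 1.26% on cuprizone and 0.584, 0.836, 1.02 and 0.756% in controls, a change of 0.90 ± 0.19 (0.00207). Neither rRNA overlapped between the diets, though the share of all genes without overlap in these groups was not counted.

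Of the protein genes, mt-Nd6 also did not overlap: 0.0108, 0.0228, 0.0200 and 0.0195% on cuprizone against 0.00712, 0.00871, 0.00847 and 0.00917% in controls, a change of 1.26 ± 0.34 (0.0221). The complex I genes mt-Nd1 (1.37 ± 0.36, 0.0340) and mt-Nd5 (1.22 ± 0.29, 0.00856) and mt-Cytb (1.22 ± 0.27, 0.00518) rose as well, with overlap. In each of these 3 the control library of animal 943 was high: it held 0.499% for mt-Nd1, where the other controls held 0.120 to 0.191% and the cuprizone libraries 0.473 to 0.628%. The remaining protein genes had positive values from 0.25 ± 0.94 (mt-Nd3) to 1.002 ± 0.31 (mt-Co1, 0.0733).

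The split of all calls in this comparison depended on scaling, with 265 genes higher and 94 lower by TMM but 211 and 180 by total counts, where the median of all genes moved from -0.05 to -0.21. By total counts 4 members were called, and with the noncoding share as a covariate 2, the rRNAs. The calls of mt-Rnr1 and mt-Rnr2 held under each of 8 other settings and without any of the 8 libraries in turn. Without the cuprizone library of animal 2476 or the control of animal 7674, 3 members were called. Over the 8 fits that each left out a library, mt-Nd1 lost its call in 6, mt-Nd6 in 5, mt-Nd5 in 2 and mt-Cytb in 0. Under the 8 other settings mt-Nd6 lost it in 4, mt-Nd1 in 3, and mt-Nd5 and mt-Cytb in 1 each.

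In WT at 12 weeks 1 member was called, mt-Nd6, where 0.958% of all genes were called and 0.689% were higher. It held 0.00624 and 0.00776% in controls and 0.0175, 0.0184 and 0.0287% on cuprizone, without overlap, a log2 change of 1.73 ± 0.45 (edgeR adjusted p = 0.0412). The call was lost under 7 of 8 settings, with adjusted p from 0.0511 to 0.306, and in 4 of 5 fits that left out a library. All genes split 97 higher and 38 lower by TMM, and 60 and 47 by total counts. The 12S rRNA mt-Rnr1 in WT stood at 0.28 ± 0.28 and in KO at 0.39 ± 0.25, and 0 members were called in KO, against 0.0284% of all genes.

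With genotypes averaged, 2 members rose at 12 weeks, mt-Rnr1 by 0.82 ± 0.14 (1.30e-04) and mt-Nd6 by 1.0002 ± 0.23 (0.00376). Of all genes 2.95% were called and 2.04% were higher, which is 287 higher and 128 lower by TMM but 226 and 188 by total counts. The 16S rRNA mt-Rnr2 was next at 0.42 ± 0.13 (0.0524). The difference between the diet effects at 12 and 5 weeks was tested and 0 members passed.

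**Figure D4:**
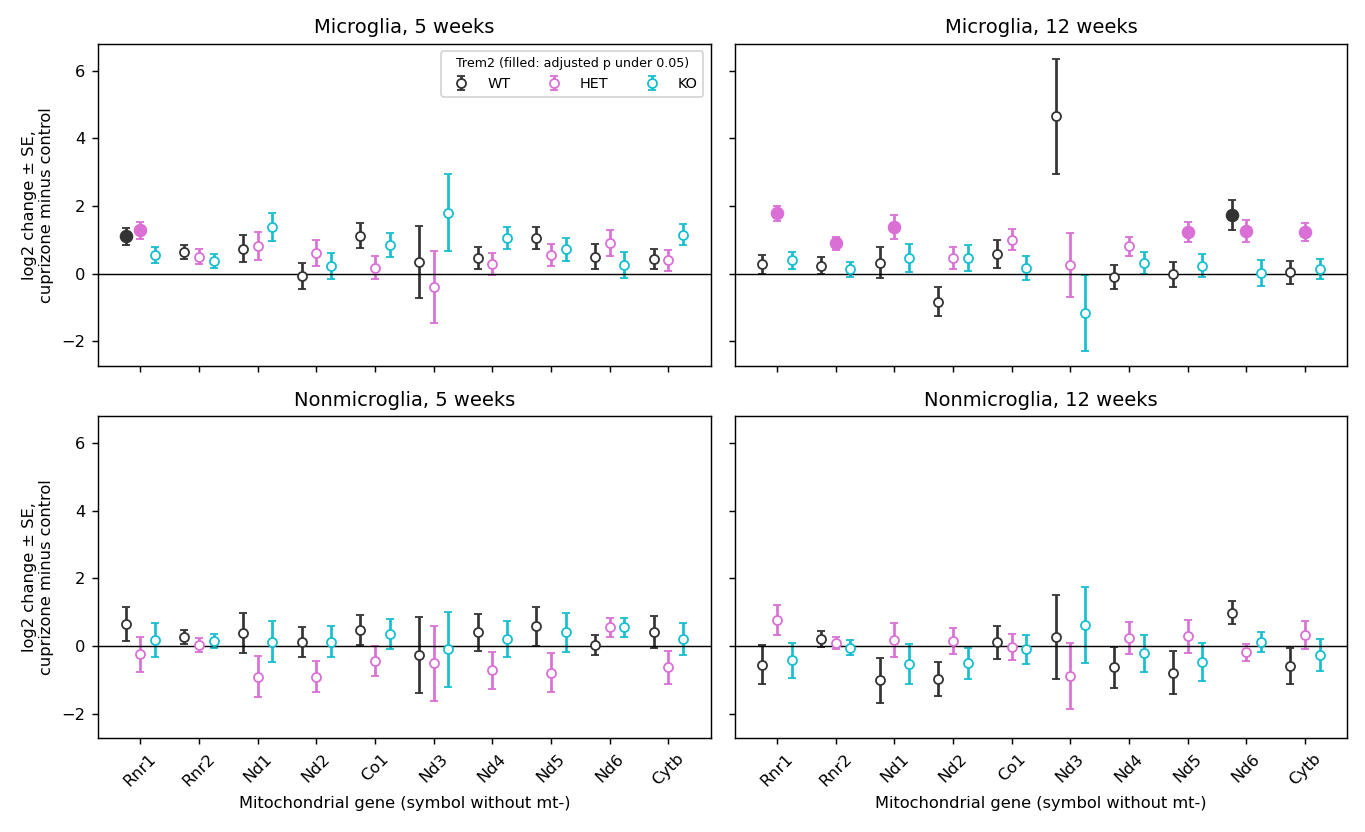
Log2 change, cuprizone minus control, with SE (vertical axis) for the 10 rRNA and protein genes with counts in every library, by fraction, week and genotype (filled points: adjusted p under 0.05). The 6 filled HET points in microglia at 12 weeks run from 0.90 (mt-Rnr2) to 1.78 (mt-Rnr1), and no nonmicroglia point is filled. The WT point of mt-Nd3 at 12 weeks, 4.65, has an SE of 1.71.

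Heterozygotes on cuprizone were set directly against the other genotypes on cuprizone after these values had been seen, so these tests describe and add no independent support. At 5 weeks 0 of 22 members passed in microglia against KO (0.0639% of all genes called) or against WT (0%), with 1 member each at an unadjusted p under 0.05. At 12 weeks 3 members were higher in HET than in WT, against 0.121% of all genes: mt-Rnr1 by 1.64 ± 0.24 (edgeR adjusted p = 1.02e-04), mt-Nd5 by 1.65 (0.00893) and mt-Cytb by 1.56 (0.00938). Against KO 3 were higher, mt-Rnr1 by 1.63 ± 0.24 (2.5e-05), mt-Nd1 by 1.58 (0.0481) and mt-Cytb by 1.35 (0.0168), with 1.05% of all genes called and 0.752% higher (106 higher and 42 lower by TMM, 63 and 73 by total counts). The 12S rRNA held 0.332, 0.276 and 0.284% in WT and 0.334, 0.345 and 0.289% in KO on cuprizone, all below the lowest HET value of 0.794%. Without WT animal 8043 or 3917, or without KO animal 981 or 1748 or HET animal 9469, 1 member was called in the respective comparison. Against KO, mt-Nd1 lost its call in 6 of 7 fits that each left out a library, and under 5 of 8 settings. There mt-Cytb lost its call in 3 of these fits and under 2 settings. Against WT, mt-Nd5 and mt-Cytb each lost theirs in 3 of 7 fits, and under 1 and 2 of 8 settings. The call of mt-Rnr1 held in all of them. The interaction itself, the diet effect in HET minus that in WT, passed for 0 members at either time; mt-Rnr1 stood at 1.501 ± 0.34 with an adjusted p of 0.223 at 12 weeks, while 0 of all genes passed.

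Other measures moved with the HET cuprizone libraries. Their noncoding share outside the members was 4.87 to 5.76%, against 5.63 to 8.37% in HET controls, 5.63 to 8.22% in WT and 5.78 to 8.26% in KO on cuprizone at 12 weeks. Neutrophil markers summed to 101 to 313 CPM, against 108 to 1913 CPM in HET controls, 623 to 1043 in WT and 588 to 5894 in KO on cuprizone. Microglia markers summed to 17655 to 22066 CPM against 24746 to 26735 in HET controls. In the HET comparison 1 of 5 microglia markers passed, Tmem119 at -1.40 ± 0.23, along with the border macrophage markers Mrc1 (-1.44 ± 0.34) and Cd163 (-1.35 ± 0.33) and the endothelial marker Flt1 (2.78 ± 0.43). Endothelial markers summed to 188 to 348 CPM against 69.5 to 99.99. No RNA integrity number was at hand for these 8 libraries. The part of these measures in the mitochondrial differences was not tested, beyond the fit with the noncoding share, in which mt-Rnr1 was called in HET, between genotypes and with genotypes averaged.

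The 2 rRNAs did not move by the same amount. Both are cut from the start of the same long RNA. The ratio of 16S to 12S counts was 3.37 ± 1.07 over microglia libraries and 2.63 ± 0.669 over nonmicroglia libraries (SD, n = 37 each). In HET microglia at 12 weeks it was 1.34 to 1.60 on cuprizone and 2.11 to 3.53 in controls, without overlap. In WT at 12 weeks it was 2.81 to 3.74 on cuprizone and 2.98 to 3.78 in controls, and in KO 2.48 to 4.195 and 3.67 to 4.37, with overlap in both. In nonmicroglia of WT at 12 weeks the order was the opposite, with 2.87 to 3.03 on cuprizone and 1.30 to 2.74 in controls, without overlap. In microglia at 5 weeks it was 2.501 to 4.33 on cuprizone and 4.34 to 4.87 in controls in WT, and 1.64 to 4.15 against 4.72 to 4.94 in HET, again without overlap. In KO it was 2.25 to 4.71 on cuprizone and 2.86 to 4.10 in controls, with overlap.

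A ratio under 2 occurred in 5 of 37 microglia libraries: the 4 HET cuprizone libraries at 12 weeks and animal 1106, HET on cuprizone for 5 weeks. It occurred in 9 of 37 nonmicroglia libraries, spread over 7 groups of both diets and of all genotypes. In the nonmicroglia fraction of HET mice on cuprizone at 12 weeks, 2 of 4 libraries had it (1.25 and 1.97).

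**Figure D5:**
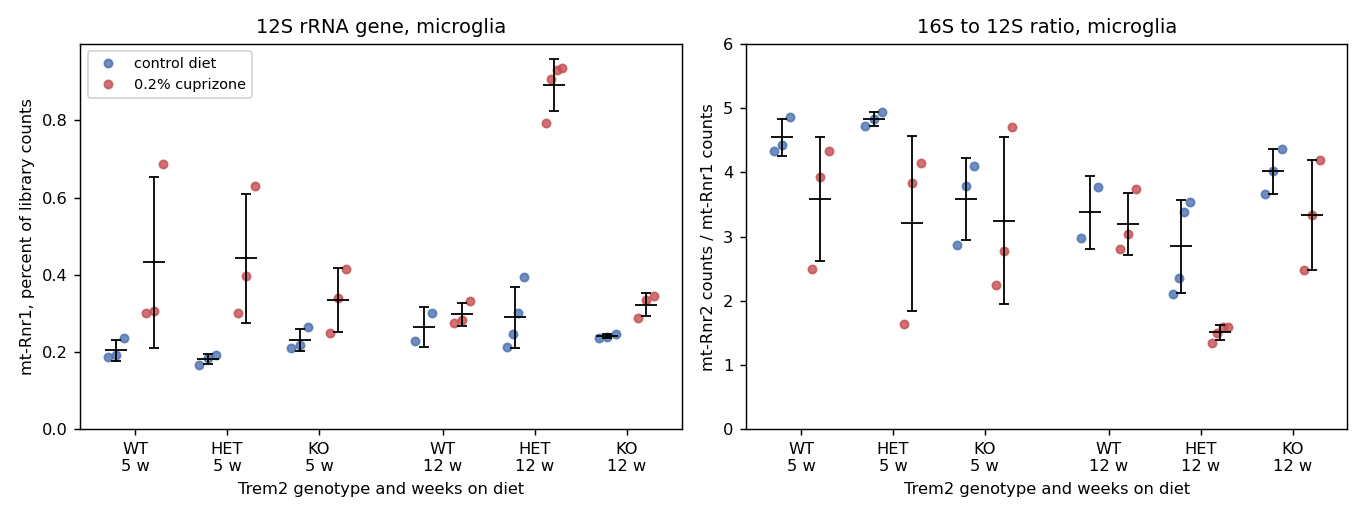
Left, the 12S rRNA gene mt-Rnr1 as a percent of library counts; right, the ratio of 16S (mt-Rnr2) to 12S counts, in microglia, a point per library with the mean and SD of each group. The 4 HET cuprizone libraries at 12 weeks lie between 0.794 and 0.937% and between 1.34 and 1.60, apart from all others of their week.

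The complex I gene mt-Nd3 stood apart by its spread. Its share ran from 0.000185 to 0.0468% over microglia libraries, 253-fold, and 57.7-fold over nonmicroglia libraries. Other rRNA and protein genes present in every library spread 2.08-fold to 7.13-fold. Within a group its highest library exceeded the lowest by up to 72.7-fold. In WT microglia at 12 weeks it held 0.000430 and 0.000383% in controls and 0.0115, 0.00340 and 0.00730% on cuprizone, a log2 change of 4.65 ± 1.71 that was not called (edgeR adjusted p = 0.272). Its sequence differs from that of the copy Gm28438 at 1 base only; the part of the copy in this spread was not tested.

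Some nuclear genes of the respiratory chain were also higher on cuprizone in microglia. At 5 weeks 11 of 75 rose and 0 fell with genotypes averaged, with a median of 0.44 against 0.00 for all genes. They included the complex I genes Ndufa3 (1.10 ± 0.21) and Ndufa7 (1.06 ± 0.24) and the ATP synthase gene Atp5e (0.97 ± 0.18). At 12 weeks 10 of 75 rose and 0 fell, among them Ndufv3 (1.29 ± 0.26), Cox8a (0.97 ± 0.20) and Uqcrh (0.89 ± 0.16). In HET at 12 weeks 22 of 75 rose and 0 fell, with Ndufb11 (1.85 ± 0.44), Cox6b1 (1.80 ± 0.27) and Uqcr11 (1.78 ± 0.44) highest; by total counts 19 rose. Of all genes, 1.33% were higher at 5 weeks, 2.04% at 12 weeks and 1.88% in HET at 12 weeks. In WT and KO at 12 weeks 0 of 75 passed, against 0.958 and 0.0284% of all genes called. A list of this size would hold few or no calls at those 2 shares. These counts of 0 therefore do not set WT and KO apart from HET.

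Summed over the list, nuclear respiratory genes took 1.36 to 1.51% of counts in HET cuprizone microglia at 12 weeks and 0.66 to 0.92% in HET controls. In WT they took 1.32 to 1.41% on cuprizone and 0.712 to 1.002% in controls, also without overlap, whereas the mitochondrial share of WT overlapped between the diets. In KO the sums were 0.86 to 1.22% and 0.81 to 1.26%.

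The machinery for mitochondrial gene expression was counted on cuprizone in microglia beside the shares of all genes called, 1.6% at 5 weeks, 2.95% at 12 weeks and 2.55% in HET at 12 weeks. Lists of this size would hold few calls at those shares, so the counts say nothing particular to them. Of 31 tested genes for transcription and RNA processing 0 passed at 5 weeks, 12 weeks or in HET at 12 weeks. Of 7 regulators 0 passed. Of 77 ribosomal proteins 1 rose at 5 weeks (Mrpl54, 1.93 ± 0.54), 1 at 12 weeks (Mrpl33, 0.83 ± 0.22) and 2 in HET at 12 weeks (Mrpl33, 1.37 ± 0.33, and Mrpl52, 1.35 ± 0.36); by total counts Mrpl54 was not called. Of 17 tRNA synthetases Lars2, the enzyme that charges the leucine tRNAs, rose by 0.97 ± 0.24 at 12 weeks and by 1.63 ± 0.36 in HET. In HET Nars2, which charges the asparagine tRNA, was called lower, with 1 count over the 4 cuprizone libraries and 96 over the 4 controls. Its level in controls was 113-fold that on cuprizone by pooled counts (exact 95% interval 19.8 to 4504, counting error only).

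In nonmicroglia no difference between the diets passed for any member tested. Over 8 comparisons, 2 weeks by genotypes averaged or apart, 0 of 24 tested members were called in either direction. The share of all genes called at 5 weeks was 0.443% with genotypes averaged, 0.0414% in WT, 0.0591% in HET and 0.0296% in KO. At 12 weeks it was 0.497, 0.0828, 0.142 and 0.0355% in the same order. The count of members at an unadjusted p under 0.05 was 0 to 2, with 0 called by DESeq2 or by limma voom. The smallest p was that of mt-Nd6 in WT at 12 weeks (0.98 ± 0.33, edgeR adjusted p = 0.495), which held 0.0174 and 0.0253% in controls and 0.0423, 0.0396 and 0.0461% on cuprizone. Group means of the summed share lay between 4.44% and 7.05%, with single libraries as high as 9.28%. Of 75 nuclear respiratory genes 0 passed at either week.

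The diet effect in microglia was also tested against that in nonmicroglia. At 5 and at 12 weeks 0 of 26 members passed, against 0.429 and 0.799% of all genes. All 10 rRNA and protein genes present in every library had a positive difference at both times, between 0.14 and 1.08 at 5 weeks and between 0.31 and 1.25 at 12 weeks. The fit above has no term for the animal, although both fractions come from the same brain. With the animal as a block, 2 members passed at 5 weeks and 4 at 12 weeks. The shares of all genes given above belong to the fit without the block, so these counts cannot be set against them.

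Between KO and WT, within diet and week, 0 of 22 members passed in microglia, against 0.0071% of all genes in controls and 0.0781% on cuprizone at 5 weeks and 0.0213% and 0.44% at 12 weeks, and 0 of 24 in nonmicroglia (0% of all genes in each of the 4). By unadjusted p under 0.05, up to 2 members in microglia and 1 in nonmicroglia stood out, with 0 by DESeq2 or voom. Between HET and WT, averaged over diets and weeks, 0 passed in microglia (0.0071% of all genes) or nonmicroglia (0%). In microglia 7 had an unadjusted p under 0.05, led by mt-Rnr1 (0.45 ± 0.12, edgeR adjusted p = 0.237). The interaction of diet with KO passed for 0 members in either fraction (0.0071 and 0.0284% of all genes in microglia at 5 and 12 weeks, 0% in nonmicroglia), with at most 4 at an unadjusted p under 0.05 in microglia, led by mt-Nd6 at 12 weeks (-1.72 ± 0.59, 0.245); DESeq2 called 1. Between 12 and 5 weeks 0 members passed, against 0.0071% of all genes on control chow and 0.341% on cuprizone in microglia and 0.236 and 0.964% in nonmicroglia. On cuprizone mt-Cytb in microglia stood lowest in p (-0.62 ± 0.17, 0.121), with 9 members at an unadjusted p under 0.05 and 1 called by DESeq2 and by limma voom. The diet effect at 12 weeks minus that at 5 weeks passed for 0 members in microglia (0.0071% of all genes) and in nonmicroglia (0.00591%), with 1 and 0 at an unadjusted p under 0.05.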

How the data were processed

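The deposited table holds raw counts of 3' tags per gene for 74 libraries of 37 mice, per the file headers. Per the submitters' processing notes, the authors used FastQC 0.11.5, STAR, MultiQC and R 3.4.3 with GRCm38.p6. No source used here names the counting program, its annotation or its handling of strand, multiple matches and molecular identifiers. Overlapping members (mt-Nd5 with mt-Nd6, mt-Nd4l with mt-Nd4, mt-Atp8 with mt-Atp6) can therefore share counts.

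Counts were analysed with edgeR 4.0.16 (R 4.3.3): filterByExpr with a minimum count of 10, TMM and a robust quasi-likelihood fit of 12 group means and sex per fraction, or 24 group means and sex for both fractions, adjusted by Benjamini-Hochberg over all genes, with calls at adjusted p under 0.05 (two-sided). SEs came from the F statistic. Shares are percents of all counts of a library. The code was tested on simulated data. Alternatives were DESeq2 1.42.0, limma 3.58.1 voom, other scalings, no filter, covariates, an animal block and leaving out each library in turn. In fits of both fractions, both libraries of an animal were left out together. The animal block uses the labels' animal numbers, which both fractions share. Replicates are separate animals.

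The 37 members, the gene lists and the 39 comparisons were chosen with earlier results of these data known. The named genes are the 15 protein and rRNA members, tRNA members that passed the filter or were highest, and up to 3 called genes per list with the largest change. Genes named as examples past these, the cell type markers with calls and 12 comparisons of HET groups were chosen after their values were seen. Coordinates and sequences are from GENCODE M21. Nuclear copies were found by shared windows of 50 bases between annotated transcripts.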

Additional observations from a re-analysis of the deposited data

Results flagged for a closer look

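In the 4 groups of 4 animals, 44 values (10 genes and the summed share in each group) were checked for a library far from the others, and 6 were found. Chance alone gives about 1 in 20. Of these, 3 came from the nonmicroglia library of animal 6296 (HET, cuprizone, 12 weeks). It held 2.42% for mt-Rnr1, where the other 3 held 0.672 to 0.754%. It held 0.172% for mt-Nd5 against 0.0365 to 0.0566%, and 9.28% for the summed share against 3.50 to 4.39%. Animal 943 (HET, control, 12 weeks) held 0.549% for mt-Nd4 in microglia against 0.201 to 0.260%, and 0.197% for mt-Co1 in nonmicroglia against 0.106 to 0.119%. The microglia library of animal 2476 (HET, cuprizone, 12 weeks) held 0.167% for mt-Co1 against 0.0679 to 0.0809%.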

How the results depend on the processing

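The counts of members called were recomputed under up to 9 other settings in 51 comparisons: 374 values stayed within 1.5 times the reported count and 57 did not. Counts of 0 that stayed at 0 are among the 374, and most comparisons had 0 called. These totals therefore do not measure how stable the comparisons with calls were. The fit with the RNA integrity number used only the libraries of 5 weeks that have one, 15 in microglia and 18 in nonmicroglia. Its calls therefore also differ by the set of animals. Of single called members, 330 values stayed called and 42 were lost, with 0 reversals. For the microglial diet effect at 5 weeks with genotypes averaged (5 called), depth and the noncoding share as covariates left 2 each. In WT (1) DESeq2, voom and the RNA integrity number gave 2, no filter 3, and depth and the noncoding share 0. In HET (1) no filter gave 2 and the integrity number 0, and in KO (0) DESeq2 gave 1 and no filter 4. At 12 weeks with genotypes averaged (2) no filter gave 7 and the noncoding share 1. In WT (1) DESeq2 gave 2, and both scalings, voom, no sex term, depth and the noncoding share gave 0. In HET (6) the noncoding share left 2. For HET against KO on cuprizone (3) DESeq2 gave 6, no filter 7, and no sex term and the noncoding share 1. For HET against WT (3) DESeq2 gave 6, voom and no filter 7, and the noncoding share 1. The microglial comparison of 12 with 5 weeks on cuprizone (0) gave 1 with DESeq2 or voom and 4 without a filter, and diet by KO and diet by HET at 12 weeks (0) gave 1 with DESeq2 and 2 and 4 without a filter. Other comparisons with 0 called gave up to 7 without a filter, which adds genes with few counts: 1 for KO against WT in microglia (controls at 5 and 12 weeks, cuprizone at 12 weeks) and for controls over time, 7 for HET against WT, and 1 to 4 in 11 nonmicroglial comparisons. Diet by fraction (0) gave 4 at 5 weeks and 3 at 12 weeks without a filter. With the replicate block by animal, diet by fraction gave 2 and 4, and the fraction difference gave 21 lower and 0 higher, as without it. The cause of these changes was not tested.

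Leaving out each library in turn gave 1 to 6 for 5 weeks averaged, 0 to 1 for WT and for HET at 5 weeks and for WT at 12 weeks, 3 to 7 for HET at 12 weeks, 0 to 1 for 12 against 5 weeks on cuprizone, 1 to 5 for HET against KO and 1 to 6 for HET against WT. Leaving out both libraries of each animal in turn gave 18 to 21 for the fraction difference. The summed share kept its diet difference (1.22 points at 5 weeks and 0.825 at 12 weeks in microglia) within the spread of replicates when only coding counts were used, the rRNA genes were left out or the nuclear copies were added. For the 9 members at 0 in all libraries and for tRNA genes with few counts, differences were not detectable at this depth. Molecules could not be told from amplified copies.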
